A study of Brassica napus with 6 samples.

Results

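A set of 145 transcripts was well expressed in pollen cultures of Brassica napus and strongly reduced in cultures given heat stress plus trichostatin A (TSA), out of 101040 gene model identifiers measured by RNA sequencing in 6 libraries. The set was chosen by its measured levels in these same libraries, as counts scaled to a library total of 1000000 (CPM). A member had a mean of at least 20 CPM over the 3 pollen-culture libraries, its highest heat stress plus TSA level was at least 4-fold below its lowest pollen-culture level, and it kept more than 3 reads over the 3 treated libraries together. The drop itself is therefore how the set was made and is described below without a test. The limits used the highest treated and the lowest pollen-culture library of each identifier, and so bound the spread within each group, but they did not use which replicate was the highest or the lowest. A level that took no part in the choice was had by leaving out 1 library at a time, though the levels it was compared with did take part.

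All cultures were of the genotype DH12075 and began from late unicellular microspores, haploid cells that lie on the path to pollen. The heat stress plus TSA cultures (3 biological replicates) received 0.05 µM TSA at 33 °C for 24 h, and their labels list embryogenic cells beside microspores and pollen. The pollen cultures (3 biological replicates) stayed at 25 °C, and their labels list microspores and pollen. The treatment protocol gives the pollen cultures the solvent DMSO, whereas their treatment label reads untreated. All cultures were then washed, kept at 25 °C and collected on day 2. Temperature and TSA changed together, so their effects cannot be told apart. Each library was made from a whole culture, so fewer cells that hold a transcript and less of it per cell cannot be told apart either.

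A microspore in culture normally divides asymmetrically and matures into pollen, a programme that switches on many transcripts found in few other plant tissues. In Brassica napus a stress given at this stage, most often heat, can turn part of the microspores toward embryo formation instead. Trichostatin A inhibits histone deacetylases, enzymes that remove acetyl groups from histones and are generally linked to lower transcription of the genes they act on.

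The identifiers come without gene names, and 0 of the 145 members (0 of 101040 identifiers) matched any of the 123214 genes that RefSeq lists for the Da-Ae assembly. Identifiers were compared as text only, so this does not show that the genes are missing from RefSeq. The roles of the members are thus not given here, and the labelled cell types could not be checked against marker genes. For that reason 2 members are printed by identifier, and the others are described by their rank. Brassica napus carries closely related A and C subgenomes, and how reads that fit several copies were counted is not given in the sources used here, so the value of any 1 identifier may include or lack reads of a near-identical copy.

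Well expressed transcripts were rarely reduced this far. Of the 101040 identifiers, 10677 averaged at least 20 CPM in pollen culture. The 145 members had a median remaining level of 4.04%, their mean after heat stress plus TSA as a percentage of their mean in pollen culture (quartiles 1.59% and 6.56%, range 0.281% to 19.97%). The median remaining level of the other 10532 identifiers of at least 20 CPM was 98.7% (quartiles 83.5% and 116%). As a group the members took 0.0158%, 0.0211% and 0.0507% of the counts in replicates 1 to 3 of the treated cultures, against 0.725%, 0.641% and 0.617% in pollen-culture replicates 1 to 3. The corresponding means were 0.0292% ± 0.0188 in the treated libraries and 0.661% ± 0.0566 in the pollen-culture libraries (SD, n = 3 each). The library totals behind these shares ran from 11758677 to 24773444 counts after treatment and from 14714537 to 24527873 in pollen culture, so 1 read was worth 0.0404 to 0.0850 CPM in a treated library.

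**Figure D1:**
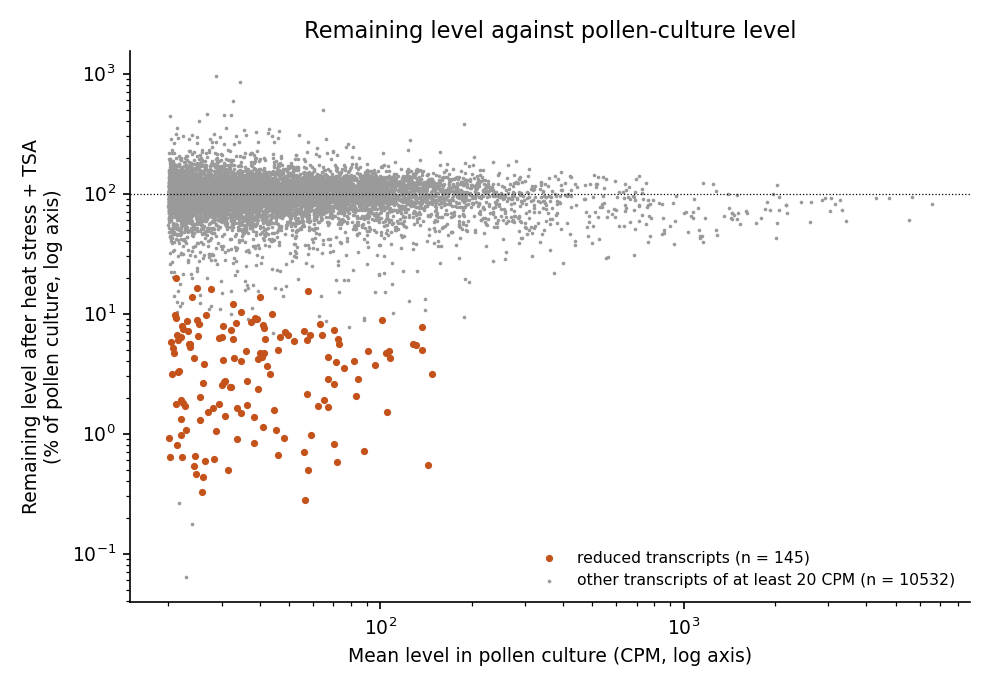
Each point is an identifier with at least 20 CPM in pollen culture; the x axis gives its mean pollen-culture level (CPM, log axis) and the y axis its mean level after heat stress plus TSA as a percentage of that (log axis). The 145 members lie between 0.281% and 19.97%, below a cloud of 10532 other identifiers with a median of 98.7%; some of these others share the members' range because their closest libraries were under 4-fold apart or because they kept at most 3 treated reads.

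By the level limit every member was among the more abundant identifiers of the pollen-culture libraries, although the most abundant ones were not in the set. Mean pollen-culture levels ran from 20.1 to 148 CPM with a median of 34.6 CPM, and 55 members lay under 30 CPM, 48 between 30 and 50, 31 between 50 and 100, and 11 above that. Ranks by mean pollen-culture level among all identifiers ran from 756 to 10610 with a median of 5920, so no identifier ranked above 756 met the limits. Levels here are per library and not per transcript length, so the ranks also depend on length.

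The drop differed widely in size. The ratio of the pollen-culture mean to the heat stress plus TSA mean ran from 5.01 to 356 with a median of 24.8. It was under 10 in 8 members, 10 to 20 in 47, 20 to 50 in 42, 50 to 100 in 23 and above 100 in 25. Measured between the closest libraries, the lowest pollen-culture level over the highest treated level, the gap was 4 to 5-fold in 18 members, 5 to 10-fold in 57, 10 to 50-fold in 56 and above 50-fold in 14. The deepest drops rest on few treated reads: 9 members kept under 10 reads over the treated libraries, 70 kept 10 to 99, and 66 kept 100 or more.

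**Figure D2:**
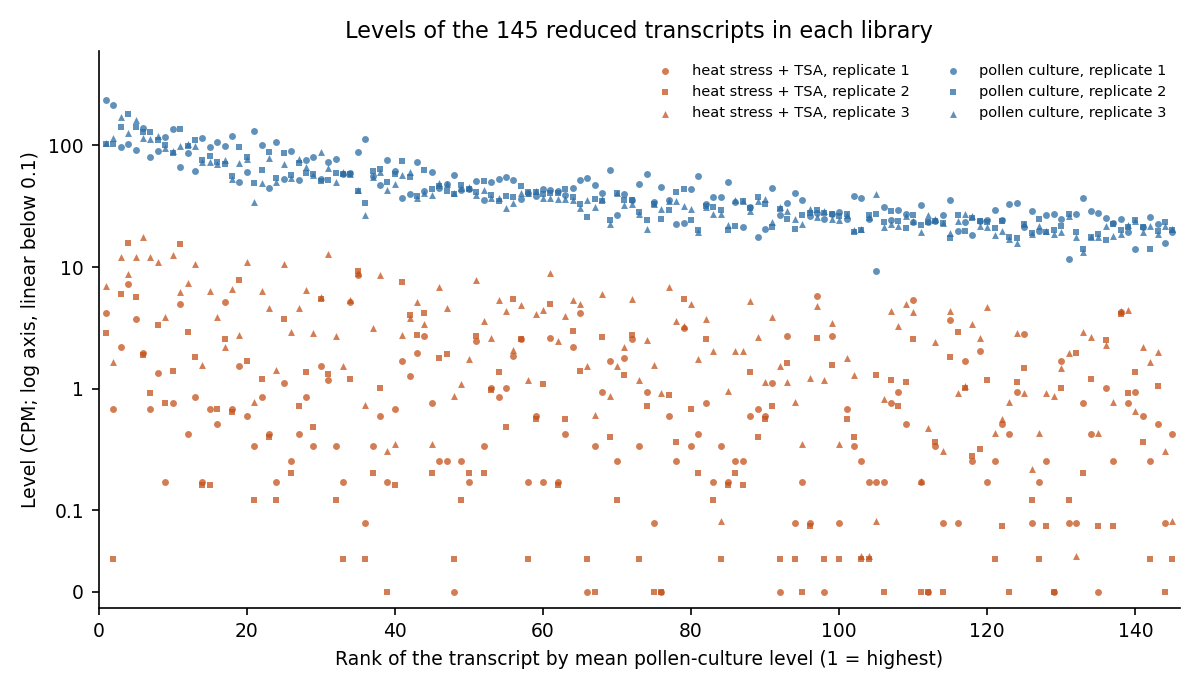
Levels of the 145 members in each of the 6 libraries (CPM on an axis that is logarithmic above 0.1 and linear below it), ordered by mean pollen-culture level. The pollen-culture points form a narrow falling band, whereas the heat stress plus TSA points are spread between 0 and 17.6 CPM, with replicate 3 mostly the uppermost.

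The member with the highest pollen-culture level was GSBRNA2T00086218001. It stood at 4.17, 2.87 and 6.94 CPM in treated replicates 1 to 3 and at 238, 102 and 105 CPM in pollen-culture replicates 1 to 3. Its means were 4.66 ± 2.08 CPM after treatment and 148 ± 78.0 CPM in pollen culture (SD, n = 3 each). Every treated library was far below every pollen-culture library, and pollen-culture replicate 1 stood apart above the other two. Its remaining level was 3.14% by the means. The ratio of its summed reads scaled by library totals, 279 treated against 8078 pollen-culture reads, was 3.43% with a 95% exact (Clopper-Pearson) interval of 3.04% to 3.87%. Molecular identifiers were not part of the counts, so this interval and those given later express counting error alone.

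The next 4 members by pollen-culture level differed from each other in which treated library was highest. The member of rank 2 had 0.680, 0.0404 and 1.66 CPM after heat stress plus TSA and 214, 103 and 115 CPM in pollen culture, a remaining level of 0.550%. The member of rank 3 had 2.21, 6.05 and 12.1 CPM after treatment, against 97.5, 141 and 173 CPM in pollen culture. The member of rank 4 had 7.31, 15.9 and 8.73 CPM after treatment, against 103, 181 and 126 CPM. Replicate 3 was thus the highest treated library for ranks 2 and 3, and replicate 2 for rank 4. Rank 5 was close to rank 3, with 3.74, 5.73 and 12.1 CPM after treatment and 91.4, 141 and 161 CPM in pollen culture. Ranks 3, 4 and 5 kept 4.96%, 7.78% and 5.48% of their pollen-culture level.

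The lowest remaining level was that of GSBRNA2T00053804001, with 0.170, 0 and 0.305 CPM in treated replicates 1 to 3, against 75.9, 50.2 and 43.2 CPM in pollen-culture replicates 1 to 3. Its remaining level was 0.281% by the means. The ratio of its summed scaled reads, 9 treated against 3206 pollen-culture reads, was 0.279% with an interval of 0.127% to 0.530%. The 4 members next to it kept 4 to 7 treated reads each. The intervals of their ratios of summed scaled reads were 0.0704% to 0.664%, 0.111% to 0.802%, 0.155% to 0.924% and 0.153% to 0.787%. All 5 intervals overlap, so the order of these 5 is not resolved at this depth. In all, 25 members kept under 1% of their pollen-culture level.

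At the other end, 8 members kept 10% to 20%, and the 5 with the most left are described here. The highest kept 19.97%, with 4.25, 4.12 and 4.36 CPM after heat stress plus TSA and 24.9, 20.2 and 18.6 CPM in pollen culture. The members after it kept 16.4% and 15.95%, and both were highest in treated replicate 1, at 5.36 and 5.78 CPM. The fourth kept 15.5%, with 8.67, 9.24 and 8.99 CPM after treatment and 88.1, 42.3 and 43.3 CPM in pollen culture. The fifth kept 13.8%, with 2.64, 4.96 and 8.94 CPM after treatment and 42.9, 40.5 and 36.9 CPM in pollen culture. Of these 5, the first and the fourth had treated levels almost equal in every library, and in the other 3 the libraries did not lie within 2-fold of each other.

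Just inside the 4-fold limit, the 2 nearest members had their highest treated level at 25.0% and 24.9% of their lowest pollen-culture level. The 2 nearest identifiers outside it stood at 25.19% and 25.22%. Just inside the level limit stood members of 20.1 and 20.2 CPM in pollen culture, and just outside it identifiers of 19.99 and 19.9 CPM that met the other limits. The members with the fewest treated reads had 4 and 5, and the 3 identifiers that met the other limits but had too few had 3, 2 and 1. Below the level limit, 429 identifiers met the remaining limits, 256 of them between 5 and 20 CPM in pollen culture.

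The remaining reads were not spread evenly over the treated libraries. Replicate 3 held the highest treated level in 117 of the 145 members (80.7%), replicate 1 in 14 and replicate 2 in 14. Among the other 10532 identifiers of at least 20 CPM, replicate 3 was the highest treated library in 24.4%, replicate 1 in 47.9% and replicate 2 in 27.7%. Median remaining levels per library were 1.20%, 1.43% and 6.56% of the pollen-culture mean in treated replicates 1 to 3 (mean 3.06% ± 3.03, SD, n = 3). Replicate 3 was at least 2-fold above both other treated libraries in 93 members (64.1%), against 2.38% of the other identifiers of at least 20 CPM. The limits do not say which treated library should be the highest, and they cap replicate 3 like the others. The median remaining level of 4.04% became 1.47% when treated replicate 3 was left out, and 4.80% and 4.65% without replicates 1 and 2.

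**Figure D3:**
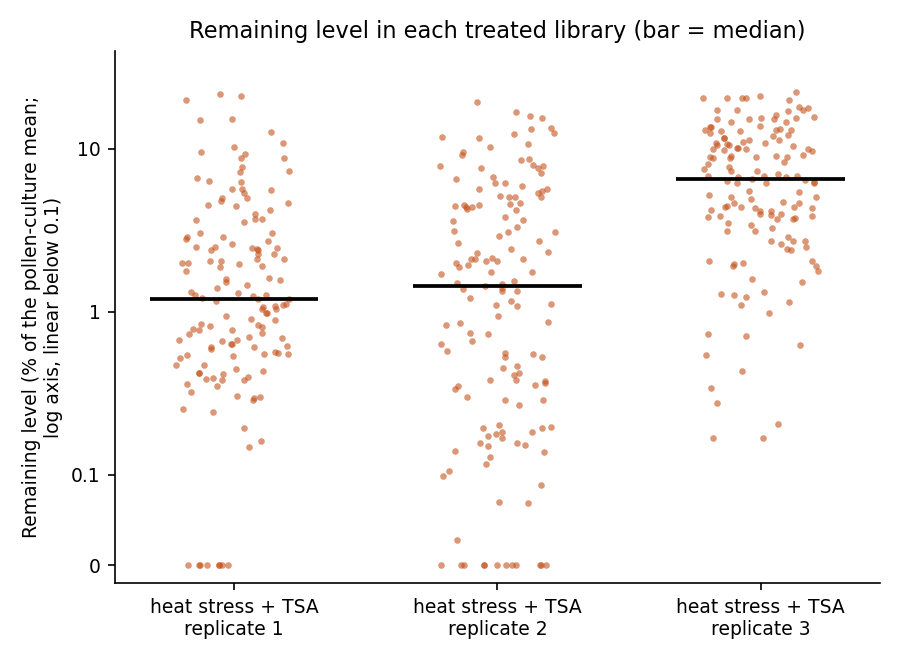
Level of each of the 145 members in heat stress plus TSA replicates 1 to 3, as a percentage of its pollen-culture mean (log axis above 0.1, linear below); points are members, shifted sideways for legibility, and bars are medians. The medians of 1.20%, 1.43% and 6.56% place replicate 3 above the other libraries, and no member is at 0 in replicate 3.

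The same tilt was present in neighbouring identifiers that the limits left out. They were picked from the same 6 libraries by nearly the same limits, with a lower level or a smaller gap, and are not independent of the members. Of the 256 identifiers between 5 and 20 CPM in pollen culture that met the other limits, replicate 3 was the highest treated library in 71.5%. Of 65 identifiers of at least 20 CPM whose closest libraries were between 2-fold and 4-fold apart, it was the highest in 72.3%. Identifiers with treated levels between the lower and upper quartile of the members, but outside the set, numbered 15034, and replicate 3 was highest in 19.2% of them. Among the members, 8 had no read in treated replicate 1, 12 in replicate 2 and 0 in replicate 3. The limit of more than 3 treated reads bears on these counts. A member without reads in replicates 1 and 2 could meet it only through replicate 3, so the counts are no further support for the tilt. In 3 members the reads were in replicate 3 alone.

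**Figure D4:**
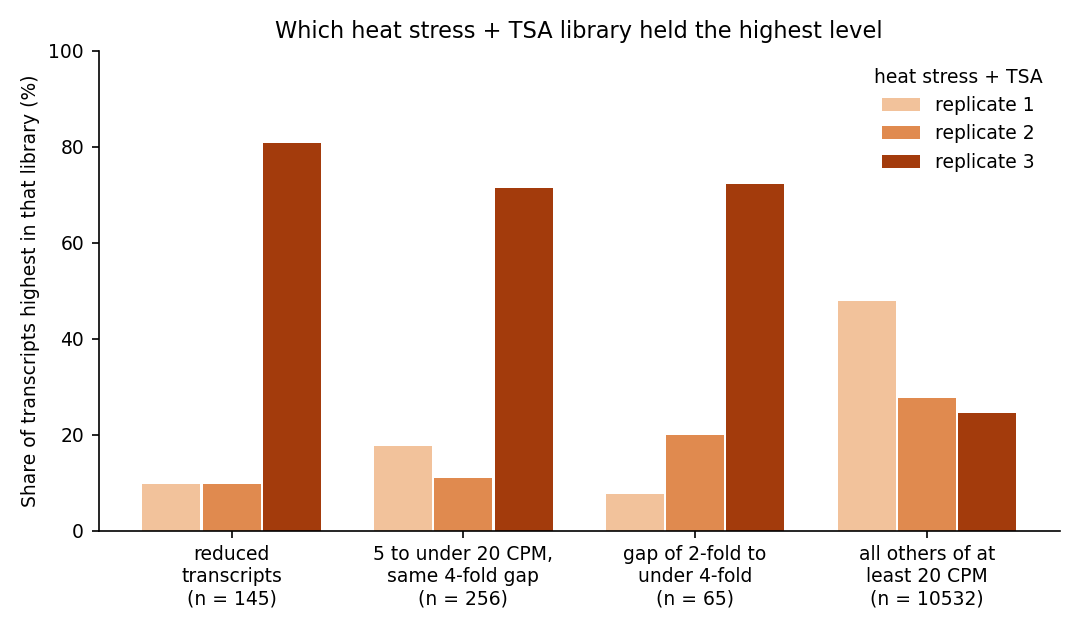
Share of identifiers whose highest heat stress plus TSA level was in replicate 1, 2 or 3 (bars, %), for the 145 members, for 256 identifiers of 5 to under 20 CPM that met the other limits, for 65 identifiers with a gap of 2-fold to under 4-fold between the closest libraries, and for the 10532 other identifiers of at least 20 CPM, which include those 65. Replicate 3 leads in the members and in both neighbouring sets, at 80.7%, 71.5% and 72.3%, and is the lowest bar in the last, at 24.4%.

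Other measures of replicate 3 stood beside this. Its total of 22920440 counts was close to the 24773444 of treated replicate 2, and treated replicate 1 had 11758677. Across the 10532 other identifiers, Pearson's r of log2(CPM + 0.5) with that of the pollen-culture mean was 0.681, 0.842 and 0.924 for treated replicates 1 to 3, a description over identifiers that share libraries. Of 129 identifiers that met the same limits turned round, high after treatment and at least 4-fold lower in pollen culture, replicate 3 was the highest treated library in 25.6% and its median level was 1.03 times the mean of the treated libraries. For the members that ratio was 2.10. The part of these differences between libraries in the members' pattern was not tested.

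The members were also sorted by which treated library kept the most. The sorting itself gives that library the highest median in its own group, so this order is no result. The 117 with replicate 3 highest had median remaining levels of 0.983%, 1.11% and 7.52% in treated replicates 1 to 3. The 14 with replicate 2 highest had 4.51%, 11.7% and 5.63%, and the 14 with replicate 1 highest had 5.50%, 2.11% and 2.56%. The highest pollen-culture library was replicate 1 in 76, replicate 2 in 22 and replicate 3 in 19 of the 117 with treated replicate 3 highest. It was replicate 1 in 4, replicate 2 in 8 and replicate 3 in 2 of the 14 with treated replicate 2 highest, and replicate 1 in 8, replicate 2 in 3 and replicate 3 in 3 of the 14 with treated replicate 1 highest. The highest treated and the highest pollen-culture library thus mostly had different numbers in the 117, whereas in each set of 14 they had the same number in 8. Treated replicate 3 was the highest in 80.7% of all members and pollen-culture replicate 1 in 60.7%. These shares by themselves make different numbers common, so nothing is read from the mismatch. Among the 66 members with 100 or more treated reads, the order of remaining levels was shared between treated replicates 1 and 2 (Spearman's rho 0.703, across members) and less so between replicate 3 and replicate 1 (0.232) or 2 (0.208). These values describe members that share libraries and denominators and carry no test. The read minimum is on the sum, and treated replicates 1 to 3 held 1860, 5216 and 11619 reads of the members. The limits also cap the highest treated library, which was mostly replicate 3. Both bear on the range of replicate 3, so its lower values cannot be read as a difference between libraries.

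Spread between replicates was wide after treatment and ordinary in pollen culture. The coefficient of variation over the 3 libraries had a median of 103% in the treated libraries and 19.9% in the pollen-culture libraries. For the other identifiers of at least 20 CPM the medians were 25.6% in the treated libraries and 19.3% in the pollen-culture libraries. Because counting error is larger at low counts, the 73 members between the quartiles of treated level were set beside the 15034 other identifiers in that range, and the medians were 112% for these members and 45.8% for the others. The 3 treated libraries lay within 2-fold of each other in 8 members, and the 3 pollen-culture libraries in 123. Of the 128 members with reads in every treated library, 48 had a highest treated level at least 10 times the lowest.

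The members with the largest ratio of highest to lowest library differed in which library stood apart. Among the 128 members with reads in every treated library, the largest treated ratio was in a member of rank 132 by pollen-culture level, with 0.0850, 1.98 and 0.0436 CPM after heat stress plus TSA, so that replicate 2 held most of its 51 reads. The members of ranks 2 and 142 came next, both with 1.66 CPM in treated replicate 3 and 0.0404 CPM in treated replicate 2. The largest ratio between pollen-culture libraries was in a member with 0.170, 1.29 and 0.0873 CPM in treated replicates 1 to 3, against 9.31, 27.4 and 39.9 CPM in pollen-culture replicates 1 to 3. The next had 0.0850, 0.0404 and 0.742 CPM after treatment, against 113, 34.0 and 27.1 CPM in pollen culture. The one after it had 0.340, 0.121 and 0.785 CPM after treatment, against 132, 49.2 and 34.5 CPM in pollen culture. Pollen-culture replicate 1 was thus the lowest of its group in the first of these members and the highest in the others.

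Replicate 1 of both groups stood apart from replicates 2 and 3 over the whole table, so the members were examined for that difference. The limits bound each library's departure within its group and used these same libraries, so the values for members are a description. In an edgeR quasi-likelihood fit with group and a term for replicate 1, 3 of the 145 members were called higher in replicate 1 and 0 lower at a Benjamini-Hochberg adjusted p of 0.05. The shares called over all 49871 identifiers tested were 8.44% higher and 9.41% lower, and over the other 10532 identifiers of at least 20 CPM they were 10.1% and 11.7%. DESeq2 called 3 members higher and 7 lower, where 6.55% and 8.30% of all 79514 identifiers were. Of these, 24666 had no adjusted p and count as not called. The DESeq2 shares are thus lower than over identifiers with an adjusted p, and not like those of the other tools. By limma-voom 4 members were called higher and 1 lower, where 9.22% and 9.19% of all identifiers were. At an unadjusted p under 0.05 in the edgeR fit there were 16 members in either direction. The share of all identifiers at that limit was not counted, so this count and the unadjusted counts below have no background beside them. The lower share of calls among members does not show that replicate 1 differed less in them, and that difference was not tested. The 3 called members had log2 differences, replicate 1 minus replicates 2 and 3, of 0.63, 1.34 and 1.01. The count changed with single libraries, as did the share called over all identifiers tested. Without heat stress plus TSA replicate 3 it was 21 members (14 higher and 7 lower), where 19.3% of all identifiers were called in either direction, and without pollen-culture replicate 1 it was 9 members, where 16.7% were. No member was called without treated replicate 2, pollen-culture replicate 2 or pollen-culture replicate 3, where 19, 8 and 13 members had an unadjusted p under 0.05 and 5.60%, 2.70% and 8.75% of all identifiers were called.

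Values within replicate 1 and within replicates 2 and 3 are given because replicate 1 stood apart, not as pairs. The heat stress plus TSA level as a percentage of the pollen-culture level had a median of 1.13% in replicate 1 (range 0 to 22.8%) and 5.07% over replicates 2 and 3 (0.159% to 21.8%). The second value pools treated libraries that differ, since the medians per treated library against the mean of all pollen-culture libraries were 1.20%, 1.43% and 6.56% for replicates 1 to 3. With 1 library per group in replicate 1, no test was made. In pollen culture, replicate 1 was the highest library in 88 members (60.7%), against 44.2% of the other identifiers of at least 20 CPM.

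The edgeR fit with group alone gave the same picture of size and is a description here, because the members were chosen on this contrast. Of the 145 members, 145 passed edgeR's filter on low counts, which their pollen-culture level ensured, and 142 were called lower at an adjusted p of 0.05, where 2.42% of all 49871 identifiers were. Fitted log2 fold changes, heat stress plus TSA over pollen culture, had a median of -4.67 and ran from -8.55 to -2.43, beside a median of -0.01 over all identifiers tested. The 3 members that were not called were all highest in treated replicate 3, as were 80.7% of all members. The largest of the 3 uncalled members had 1.19, 1.33 and 12.9 CPM in treated replicates 1 to 3, against 72.8, 51.7 and 64.7 CPM in pollen culture. The others had 0.595, 0.888 and 6.85 CPM after treatment against 35.7, 29.6 and 34.9 CPM in pollen culture, and 0.170, 1.17 and 4.71 CPM after treatment against 24.5, 23.3 and 21.5 CPM in pollen culture. The number called was 85 without pollen-culture replicate 2, where 0.860% of all identifiers tested were called lower.

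Choosing identifiers on 5 libraries and reading the remaining library gave levels that took no part in the choice. The levels of the other group, with which they were compared, did take part. Between 122 and 143 of the 145 members were in each of these choices. With heat stress plus TSA replicate 1 left out, 144 identifiers met the limits, and in the unused library 143 of them were below every pollen-culture library and 141 at least 4-fold below. With treated replicate 2 left out, 150 met the limits, of which 150 were below and 143 at least 4-fold below. With treated replicate 3 left out, 196 met the limits, of which 193 were below but only 122 (62.2%) at least 4-fold below. Among identifiers of at least 20 CPM that were not chosen, 32.6%, 33.3% and 33.0% were below every pollen-culture library in the unused treated replicates 1 to 3, and 3.40%, 0.864% and 0.353% at least 4-fold below. The median level in the unused library was 1.25%, 1.63% and 13.6% of the pollen-culture mean for treated replicates 1 to 3. These medians are over different sets, of 144, 150 and 196 identifiers. Leaving out replicate 3 also lifted the limit from the library that was mostly the highest. The medians therefore cannot be read as a difference between libraries in 1 set.

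With a pollen-culture library left out, the median level in it was near the mean of the others while single identifiers varied. The chosen identifiers numbered 150, 148 and 145 without pollen-culture replicates 1, 2 and 3. Every one of them was above all treated libraries in the unused pollen-culture library, against 24.2%, 26.4% and 25.2% of the identifiers not chosen. The limits kept the treated levels low in the chosen identifiers, so this contrast follows in part from the choice. At least a 4-fold gap was kept by 131, 146 and 142. The median level in the unused library was 100.2%, 94.9% and 87.8% of the mean of the pollen-culture libraries that were used. The quartiles were 69.7% and 132% in replicate 1 (range 11.6% to 369%), 79.6% and 105% in replicate 2, and 75.8% and 103% in replicate 3. The median drop was smaller in the unused treated replicate 3 than in the unused replicates 1 and 2, but over different sets of identifiers.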

How the data were processed

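The deposited values are raw read counts per gene model identifier, 1 column per library, without normalization by the authors. TopHat2 and HTSeq are named in the submitters' processing notes; the sources used here give no version, genome build, annotation or strand setting. Columns were matched to samples by their descriptions, and groups come from the titles. CPM was computed as count over column total times 1000000. Members were found by the 3 limits given above. The members, lists and tests were chosen with earlier results of these data known.

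Tests across all identifiers used edgeR 4.0.16 in R 4.3.3 (TMM scaling, filterByExpr with a minimum count of 10, quasi-likelihood F test, Benjamini-Hochberg adjustment over all identifiers tested, threshold 0.05), with DESeq2 1.42.0 and limma-voom 3.58.1 as alternatives. The edgeR fits with TMM scaling and filterByExpr (group alone, term for replicate 1, replicate block) were run on simulated counts for 6 libraries. So were the group fits of DESeq2 and limma-voom, and the outcome is not given here. Fits with other scalings or filters, with libraries left out, or with the replicate 1 term in DESeq2 or limma-voom were not. Library pairs differed by more than sampling noise (lowest chi-square per degree of freedom 10.2, over identifiers with 20 or more reads). Members described by rank are the 5 highest by pollen-culture level, the 5 lowest and 5 highest by remaining level, the 3 with the widest spread in each group and those nearest each limit; others named were picked after their values were seen. Library totals leave a shift between groups: the median log2 fold change over the identifiers tested was 0.12 when scaled by totals alone, and -0.01 with TMM.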

Additional observations from a re-analysis of the deposited data

How the results depend on the processing

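The number of members was 145, and 156 and 158 with CPM by TMM-scaled totals or DESeq2 size factors, with 143 of the 145 in each. It follows the limits by construction: 91 with a gap of 8-fold, 210 with 2-fold, 262 from 10 CPM, 42 from 50 CPM, and 554 from replicate 1 alone, which held 90 of the 145. Leaving out a library gave 144 to 196. The median remaining level of 4.04% stayed within 1 SD of the treated libraries (3.03) in 11 of 11 alternatives, a wide margin, at 1.13% to 5.07%. The number called lower by edgeR was 142, where 2.42% of all identifiers tested were. Under the other scalings, filters and tools, the term for replicate 1 and replicates 2 and 3 alone it was 140 to 145. There 1.71% to 4.78% of all identifiers were called lower, counting 18666 of 79514 in DESeq2 without an adjusted p as not called. Leaving out a library gave 85 to 143, where 0.860% to 2.60% of all identifiers were called lower. Without treated replicate 3 the median fitted log2 fold change was -6.25. The number called for the replicate 1 term was 3, where 17.8% of all identifiers tested were called in either direction. It was 1 with library totals alone (16.8% of all), 10 with no filter (14.9%) and 5 by limma-voom (18.4%). By DESeq2 without filterByExpr it was 10 (14.8%, counting 24666 of 79514 identifiers without an adjusted p as not called). Leaving out a library gave 0 to 21, where 2.70% to 19.3% of all identifiers were called. The cause of these differences was not tested. Treated replicate 3 was highest in 84.8% of members with either other scaling and in 80.3% of those with 100 or more treated reads. These alternatives were chosen after seeing the data. The minimum of 100 is on reads summed over the treated libraries, most of which were in replicate 3. It thus favours members high in that library and is no independent check.

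Replicate numbers were not taken as pairs, since the deviations of libraries with the same number correlated at 0.54, 0.47 and 0.03 for replicates 1 to 3, and 3 of 6 libraries had their best correlation within their number. With the replicate block, the fit called 145 of 145 members lower, where 3.10% of all identifiers tested were. Depth limits the deepest drops, since 17 members had no read in 1 or 2 treated libraries.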

Other observations

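Among the members there were 5 pairs whose identifier numbers differed by at most 10, and in 2 of these the numbers were consecutive. The deposited table does not say whether close numbers are close gene models, and overlapping models or reads shared between near-identical copies cannot be told apart from separate genes here. In the first consecutive pair, 1 member had 0.680, 0.0404 and 1.66 CPM after heat stress plus TSA and 214, 103 and 115 CPM in pollen culture, and its neighbour 0.0850, 0.0404 and 0.349 CPM against 28.3, 26.5 and 24.6 CPM. In the second, 1 member had 0.340, 0.121 and 0.785 CPM after treatment and 132, 49.2 and 34.5 CPM in pollen culture, and its neighbour 1.96, 1.90 and 17.6 CPM against 139, 129 and 116 CPM. The partners in each pair differed in level. In both pairs treated replicate 3 and pollen-culture replicate 1 were the highest of their group in each partner. Treated replicate 2 was the lowest, but the first neighbour had 1 read each in replicates 1 and 2, and the second had 1.96 and 1.90 CPM. These were also the commonest states among all members, at 80.7%, 60.7% and 50.3%. In the pair whose numbers differed by 10, the highest treated library was replicate 3 in 1 partner and replicate 2 in the other. In the remaining pairs replicate 3 was the highest in both partners. These orders were noticed in the data and were not tested.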
